A study of Mus musculus with 4 samples.

Results

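The genes of MHC class I presentation and the immunoproteasome were followed in cardiac neutrophils after myocardial infarction and reperfusion (MI/R). The 10 genes were taken by symbol from the 25655 genes of the files. They are the class I heavy chains *H2-K1* and *H2-D1*, the light chain *B2m*, the peptide transporter genes *Tap1* and *Tap2*, tapasin (*Tapbp*), the immunoproteasome subunits *Psmb8*, *Psmb9* and *Psmb10*, and the class I transactivator *Nlrc5*. In this pathway proteasomes cut cytosolic proteins into peptides, the TAP transporter carries the peptides into the endoplasmic reticulum, tapasin holds empty class I molecules at the transporter, and loaded heavy and light chains move to the cell surface for inspection by CD8 T cells. Interferons raise most of these genes, and the immunoproteasome subunits then take the places of the constitutive catalytic subunits. Neutrophils, like nearly all nucleated cells, carry class I molecules.

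The RNA-Seq data came from CD45.2+CD11b+Ly6G+ neutrophils sorted from hearts taken at day 3 of MI/R. The 4 libraries were SiglecF lo and SiglecF hi neutrophils of WT and *Cd300a-/-* mice, with 1 library per group, and each was a pool of 8 hearts. The labels call the subsets SiglecF-negative and SiglecF-positive. Per the methods, the mice were 8 to 12 weeks old and male, the WT mice were C57BL/6J, and the *Cd300a-/-* mice had a C57BL/6 background. In SiglecF lo neutrophils the gene counts totalled 9631901 for WT and 10988619 for *Cd300a-/-*, and in SiglecF hi neutrophils 19278243 for WT and 17632989 for *Cd300a-/-*. Levels are given as deposited TPM, which is scaled per length of the transcript. Differences are log2((TPM + 1) ratio), called the log2 ratio here, with a 95% interval from the Poisson error of both counts (the counting interval). Such an interval covers counting error only, since no molecular identifiers separate the reads of 1 molecule and no mouse can be read apart from its pool. There was 1 library per group, so the differences have no replicate check and no test was made. Genes with a mean of the 4 libraries over 10 TPM were counted (6523 genes), and a log2 ratio past 0.5 in either direction was called. Of the 10 genes, 9 passed this limit, and each of the 9 was over 10 TPM in every library, so none passed through a single group. *Nlrc5* was under the limit and is given by its values.

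The targeted gene was read first. *Cd300a* had 3024 counts in WT and 28 counts in *Cd300a-/-* SiglecF lo neutrophils, and 6640 and 27 counts in the SiglecF hi neutrophils. *Siglecf*, the sorting marker, was at 11.3 and 15.3 TPM in WT and *Cd300a-/-* SiglecF lo neutrophils and at 354 and 405 TPM in the SiglecF hi neutrophils. *Ly6g*, the neutrophil marker of the gate, was at 330.4 and 889 TPM in WT and *Cd300a-/-* SiglecF lo neutrophils but at 11.1 and 41.9 TPM in the SiglecF hi neutrophils. The 9 neutrophil markers listed summed to 157093 TPM for WT SiglecF lo, 209349 TPM for *Cd300a-/-* SiglecF lo, 28010 TPM for WT SiglecF hi and 33327 TPM for *Cd300a-/-* SiglecF hi neutrophils. *S100a9* was the most abundant of them, at 76228, 89228, 13719 and 15355 TPM in the same order. Markers of other cell types were also detected, and other cells in the sort and expression or uptake by the sorted cells cannot be told apart. The 10 monocyte or macrophage markers summed to 4093 and 3829 TPM in WT and *Cd300a-/-* SiglecF lo neutrophils and to 8625 and 7504 TPM in the SiglecF hi neutrophils, with *C1qb* the most abundant on average over the libraries, and none of the 10 was at 0 in any library. The 6 fibroblast markers, led by *Dcn*, summed to 869, 812, 1854 and 1299.8 TPM in WT SiglecF lo, *Cd300a-/-* SiglecF lo, WT SiglecF hi and *Cd300a-/-* SiglecF hi neutrophils. The eosinophil gene *Epx* had 0 counts in each library. The 8 eosinophil markers summed to 173, 87.9, 117 and 119.8 TPM in that order, of which *Ear2* alone held 170.5, 85.9, 109.8 and 113 TPM. *Trac* of T cells and *Ighm* of B cells also had 0 counts in each library. The 9 T or NK cell markers summed to 11.8, 11.5, 4.37 and 9.32 TPM, with *Cd3d* the most abundant on average, and the 5 B cell markers, with *Cd79b* the most abundant on average, to 5.09, 6.22, 8.55 and 14.2 TPM. A count of 0 allows up to 3 counts.

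The class I heavy chains and the light chain were the most abundant of the 10 genes. *H2-D1* was at 2926 TPM for WT SiglecF lo, 2969.8 TPM for *Cd300a-/-* SiglecF lo, 2307 TPM for WT SiglecF hi and 2347 TPM for *Cd300a-/-* SiglecF hi neutrophils. It was the only member whose TPM was lower in both SiglecF hi libraries than in both SiglecF lo libraries (with TMM-scaled CPM, which sets the libraries to a common level over most genes, this also held for *Tap2*), and its levels differed little between genotypes. *H2-K1* was at 1061, 880.4, 1370.4 and 1439.6 TPM in the same order of libraries. *B2m*, whose product every class I heavy chain needs to fold, was at 7295, 4603, 7629 and 7497 TPM. With TPM, *B2m* was thus at a similar level in 3 libraries and lower in *Cd300a-/-* SiglecF lo neutrophils. With TMM scaling it was at 3673, 2357, 2640 and 2565 CPM, and WT SiglecF lo stood apart as the highest. Together these 3 genes held 1.13% of all TPM for WT SiglecF lo, 0.845% for *Cd300a-/-* SiglecF lo, 1.13% for WT SiglecF hi and 1.13% for *Cd300a-/-* SiglecF hi neutrophils.

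*Tap1*, which forms the peptide transporter with *Tap2*, was at 99.9 TPM for WT SiglecF lo, 57.3 TPM for *Cd300a-/-* SiglecF lo, 87.4 TPM for WT SiglecF hi and 86.1 TPM for *Cd300a-/-* SiglecF hi neutrophils. The 95% counting intervals of the SiglecF hi levels overlapped (83.9 to 91.1 TPM and 82.3 to 89.9 TPM), and that of *Cd300a-/-* SiglecF lo lay below them (53.7 to 61.0 TPM). With TMM scaling *Tap1* was at 173, 101, 104 and 101 CPM in that order, so WT SiglecF lo was high and the other 3 libraries were close. *Tap2* varied less, at 65.2, 58.3, 63.7 and 77.6 TPM in the same order. *Tapbp*, the bridge between transporter and class I molecule, had another order, at 163 TPM for WT SiglecF lo, 200.3 TPM for *Cd300a-/-* SiglecF lo, 244 TPM for WT SiglecF hi and 325 TPM for *Cd300a-/-* SiglecF hi neutrophils. Its log2 ratio between *Cd300a-/-* and WT, at 0.30 (SiglecF lo) and 0.41 (SiglecF hi), was the highest of the 10 genes in each subset.

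The immunoproteasome subunits *Psmb10* and *Psmb9* had the widest spans of the 10 genes, with a highest over lowest TPM of 3.34 and 2.84, against 2.00 for *Tapbp* and 1.83 for the subunit *Psmb8*. *Psmb9* (LMP2) was at 98.6 TPM (915 counts) for WT SiglecF lo, 34.8 TPM (356 counts) for *Cd300a-/-* SiglecF lo, 67.7 TPM (1074 counts) for WT SiglecF hi and 55.9 TPM (794 counts) for *Cd300a-/-* SiglecF hi neutrophils. *Psmb10* (MECL-1) was at 102 TPM (685 counts), 51.5 TPM (383 counts), 160.5 TPM (1846 counts) and 172 TPM (1775 counts) in that order. *Psmb8* (LMP7) was at 212, 131, 229 and 239 TPM. All 3 subunits were lowest in *Cd300a-/-* SiglecF lo neutrophils with TPM and with TMM scaling. For *Psmb9* with TMM scaling, the *Cd300a-/-* SiglecF lo and SiglecF hi libraries differed by less than counting error (37.4 and 40.2 CPM). The highest library was WT SiglecF lo for *Psmb9* and *Cd300a-/-* SiglecF hi for *Psmb10* on both scales, and for *Psmb8* it was *Cd300a-/-* SiglecF hi with TPM but WT SiglecF lo with TMM scaling (207 CPM, against 154 and 159 CPM in the WT and *Cd300a-/-* SiglecF hi libraries). *Nlrc5*, which drives transcription of class I genes, was at 8.23 TPM (345 counts), 5.36 TPM (248 counts), 9.02 TPM (646 counts) and 9.48 TPM (608 counts) in the same order. Of the 10 genes, 8 (all but *H2-D1* and *Tapbp*) had their lowest TPM in *Cd300a-/-* SiglecF lo neutrophils, as did 46.4% of the 6523 genes. With TMM-scaled CPM these numbers were 7 of 10 and 33.9%. The counts of 8 and 7 include *Nlrc5*, which is under the limit and so not among the 6523 genes.

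**Figure D1:**
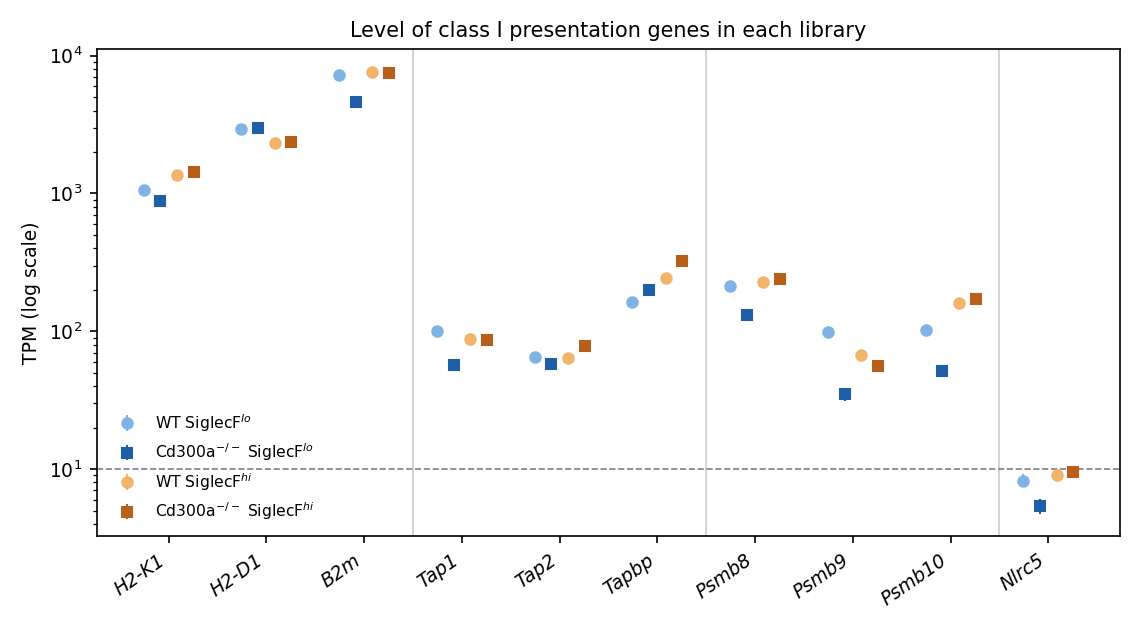
Levels of the 10 class I presentation genes in the 4 libraries, as deposited TPM on a logarithmic axis. Circles are WT and squares *Cd300a-/-*, SiglecF lo in blue and SiglecF hi in orange, bars are 95% counting intervals (mostly smaller than the symbols), and the dashed line is the limit of 10 TPM. *Cd300a-/-* SiglecF lo was lowest for 8 of the 10 genes, and *Nlrc5* lay below the limit in every library.

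Between genotypes in SiglecF lo neutrophils, the immunoproteasome subunits, *Tap1* and *B2m* were lower in *Cd300a-/-*. For *Psmb9* the log2 ratio between *Cd300a-/-* and WT was -1.48, with a counting interval from -1.65 to -1.30. The ratio was -0.97 (-1.14 to -0.79) for *Psmb10*, -0.79 (-0.91 to -0.68) for *Tap1*, -0.69 (-0.79 to -0.59) for *Psmb8* and -0.66 (-0.69 to -0.64) for *B2m*. Thus 5 of the 9 genes over the limit were lower past 0.5, against 19.9% of all genes tested, and 0 were higher past it, against 16.4%. The median of the 9 was -0.66 and that of all 6523 genes -0.02. *Nlrc5* had a ratio of -0.54 (-0.74 to -0.33). *H2-K1* had -0.27 (-0.31 to -0.23) and *Tap2* -0.16 (-0.27 to -0.04). *H2-D1* had 0.02 (0.001 to 0.04) and *Tapbp* 0.30 (0.23 to 0.37). These directions were the same with TMM scaling, with DESeq2 size factors and with every ratio centred on the median. In bulk RNA, fewer cells of a type and less RNA per cell cannot be told apart.

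Markers of other cells differed between these libraries too. All 5 endothelial markers over the limit were lower past 0.5 in *Cd300a-/-* SiglecF lo neutrophils, with a median log2 ratio of -1.27. The sum of the 7 endothelial markers was 158.5 TPM for WT SiglecF lo, 55.5 TPM for *Cd300a-/-* SiglecF lo, 88.5 TPM for WT SiglecF hi and 112 TPM for *Cd300a-/-* SiglecF hi neutrophils. The most abundant, *Pecam1*, was at 57.5, 15.6, 23.2 and 30.4 TPM in that order, and none of the 7 was at 0 in any library. The 6 cardiomyocyte markers, with *Myl2* the most abundant on average, summed to 43.6, 25.3, 41.6 and 62.9 TPM. The 7 dendritic cell markers summed to 15.3 and 5.03 TPM in the WT and *Cd300a-/-* SiglecF lo libraries, and the first of these sums came mostly from *Cd209a* (80 counts in WT and 0 in *Cd300a-/-*). In the SiglecF hi neutrophils they summed to 7.42 and 9.49 TPM. The markers at 0 counts were *Xcr1* and *Flt3* in the first library and *Clec9a* and *Cd209a* in the second. In the other direction, 5 of 9 neutrophil markers were higher past 0.5 in *Cd300a-/-* SiglecF lo neutrophils, with a median of 0.58. The 10 monocyte or macrophage markers had a median of -0.12 there, with 1 higher and 0 lower past 0.5. The part of these markers in the class I differences was not tested.

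In SiglecF hi neutrophils the same genes differed little between genotypes. The log2 ratio of *Cd300a-/-* to WT was past 0.5 for 0 of the 9 genes over the limit, where 3.31% of all genes were higher and 3.46% lower past it. The median of the 9 was 0.06, against 0.04 for all genes. *Tapbp* had the largest ratio, 0.41 (95% counting interval 0.36 to 0.45), followed by *Tap2* at 0.28 (0.19 to 0.37) and *Psmb9* at -0.27 (-0.40 to -0.14). The intervals of *Tap1* (-0.11 to 0.06), *Psmb8* (-0.01 to 0.13) and *Nlrc5* (-0.08 to 0.21) held 0. *H2-K1* had 0.07 (0.04 to 0.10), *Psmb10* 0.10 (0.01 to 0.20) and *B2m* -0.03 (-0.04 to -0.01). *H2-D1* had 0.03 (0.01 to 0.04), which turned to -0.01 when centred on the median. Of the 5 fibroblast markers over the limit, 3 were lower past 0.5 in *Cd300a-/-* SiglecF hi neutrophils, with a median of -0.64, and 3 of 9 neutrophil markers were higher past it. The endothelial markers had a median of 0.38, with 1 of 5 higher past 0.5, and the cardiomyocyte markers one of 0.41, with 1 of 3 higher. The monocyte or macrophage markers had a median of -0.20, with 0 of 10 past 0.5. Their part was not tested.

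**Figure D2:**
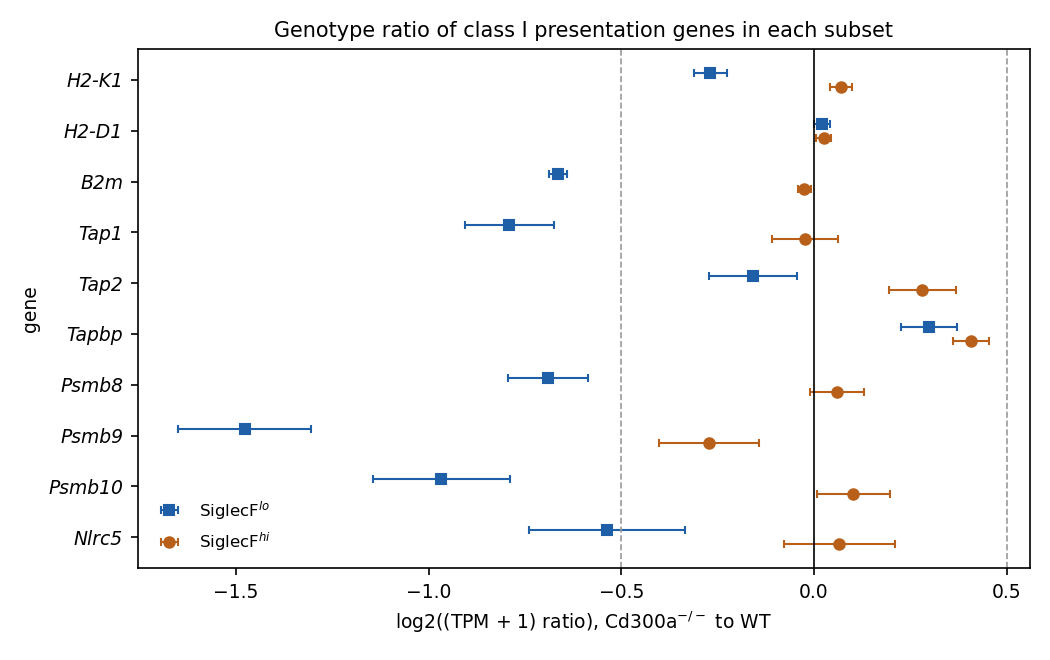
Genotype ratios, as log2((TPM + 1) ratio) with *Cd300a-/-* over WT, for each gene in SiglecF lo (blue squares) and SiglecF hi (orange circles) neutrophils. Bars are 95% counting intervals, the solid line is 0 and the dashed lines are 0.5 in either direction. In SiglecF lo neutrophils *Psmb9* was lowest at -1.48 and 6 genes, *Nlrc5* included, lay below -0.5, and in SiglecF hi neutrophils the ratios lay between -0.27 and 0.41.

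The difference of the genotype ratios between subsets, SiglecF hi minus SiglecF lo, was 1.21 (95% counting interval 0.99 to 1.42) for *Psmb9*, 1.07 (0.87 to 1.27) for *Psmb10*, 0.77 (0.62 to 0.91) for *Tap1*, 0.75 (0.62 to 0.87) for *Psmb8* and 0.64 (0.61 to 0.67) for *B2m*. It was 0.60 (0.35 to 0.85) for *Nlrc5*, 0.44 for *Tap2*, 0.34 for *H2-K1*, 0.11 for *Tapbp* and 0.004 (-0.02 to 0.03) for *H2-D1*. Of the 9 genes over the limit, 5 had a difference over 0.5, against 20.3% of all genes tested, and the median was 0.64, against 0.05. This measure was chosen after the data were seen, and the difference was not tested. All 3 immunoproteasome subunits were over 0.5 and neither heavy chain was. Related gene lists had such differences as well. Over 0.5 were 12 of 18 interferon-induced genes outside the class I pathway (median 0.68), 4 of 7 proteasome activator and assembly genes (0.57), 7 of 14 constitutive core genes (0.54) and 3 of 8 other class I heavy chains (0.25). Of 11 loading and trimming genes 0 were over 0.5 (0.04) and 1 was under -0.5, and of 15 promoter factors 4 were over (0.01) and 2 under. Of 7 interferon receptor or kinase genes 0 were over 0.5 (-0.07), and of 6 class II genes 1 was (-0.0007), with 0 under -0.5 in both lists. Markers of some other cells also had such differences. All 5 endothelial markers over the limit were over 0.5, with a median of 1.74 and 2.20 for *Pecam1*, as were all 3 cardiomyocyte markers (median 0.78). *Ear2* (1.02), the only gene of the eosinophil list over the limit, was over 0.5 too, but *Epx* of that list was not detected in any library. Of the neutrophil, monocyte or macrophage, and fibroblast markers 0 were over 0.5, with medians of -0.13, -0.14 and -0.49. Under -0.5 were 0 of 9, 1 of 10 and 2 of 5 of them, against 900 of all 6523 genes. The part of these markers in the differences was not tested.

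Ratios inside a library do not depend on how libraries are scaled to each other. Each immunoproteasome subunit replaces a constitutive subunit, *Psmb8* that of *Psmb5*, *Psmb9* that of *Psmb6* and *Psmb10* that of *Psmb7*. The TPM ratio of *Psmb10* to *Psmb7* was 0.757 (95% counting interval 0.683 to 0.838) for WT SiglecF lo, 0.438 (0.387 to 0.495) for *Cd300a-/-* SiglecF lo, 0.697 (0.656 to 0.741) for WT SiglecF hi and 0.704 (0.661 to 0.749) for *Cd300a-/-* SiglecF hi neutrophils. It was thus alike in 3 libraries within counting error and lower in *Cd300a-/-* SiglecF lo neutrophils. The ratio of *Psmb9* to *Psmb6* was 0.634 (0.573 to 0.702), 0.360 (0.313 to 0.414), 0.228 (0.212 to 0.246) and 0.215 (0.198 to 0.234) in the same order. Here WT SiglecF lo was highest and the SiglecF hi libraries were lowest, with overlapping intervals. The ratio of *Psmb8* to *Psmb5* was 1.46 (1.34 to 1.59), 0.919 (0.839 to 1.01), 1.04 (0.983 to 1.10) and 1.28 (1.20 to 1.36). *Psmb5* shares 70.3% of its 36-base stretches with other gene models, mostly *Gm3375*, so this ratio is uncertain. Summed over the catalytic subunits, the immunoproteasome genes made up 48.6% of TPM for WT SiglecF lo, 37.8% for *Cd300a-/-* SiglecF lo, 38.0% for WT SiglecF hi and 40.3% for *Cd300a-/-* SiglecF hi neutrophils. These sums include *Psmb5*, so its uncertainty applies to them too.

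The chains of the class I molecule shifted against each other as well. *H2-K1* relative to *H2-D1* was 0.363 (0.354 to 0.371) for WT SiglecF lo, 0.296 (0.290 to 0.303) for *Cd300a-/-* SiglecF lo, 0.594 (0.584 to 0.604) for WT SiglecF hi and 0.613 (0.603 to 0.624) for *Cd300a-/-* SiglecF hi neutrophils. The SiglecF hi libraries were thus higher than both SiglecF lo libraries. *H2-D1* relative to *B2m* was 0.401 (0.395 to 0.407), 0.645 (0.635 to 0.656), 0.302 (0.299 to 0.306) and 0.313 (0.309 to 0.317) in the same order, highest in *Cd300a-/-* SiglecF lo neutrophils. *H2-K1* relative to *B2m* was 0.145 (0.142 to 0.149), 0.191 (0.187 to 0.196), 0.180 (0.177 to 0.183) and 0.192 (0.189 to 0.195), lowest in WT SiglecF lo neutrophils.

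Between the subsets, some directions changed with the scaling. Over all 6523 genes, the ratio of SiglecF hi to SiglecF lo had a median log2 value of 0.53 in WT and 0.61 in *Cd300a-/-* with TPM, and 0.00 and 0.05 with TMM scaling, so both scales are given. In WT, *Psmb10* and *Tapbp* were higher in SiglecF hi neutrophils past 0.5 with TPM, with log2 ratios of 0.65 (95% counting interval 0.53 to 0.78) and 0.59 (0.52 to 0.65), and *Psmb9* was lower at -0.53 (-0.66 to -0.41). These 2 of 9 higher genes stand against 51.9% of all genes, and the 1 lower gene against 7.47%. With TMM scaling 0 of 9 were higher, against 20.1%, and 4 were lower, against 21.0%. The 4 were *Psmb9* (-1.07), *H2-D1* (-0.88), *Tap1* (-0.73) and *Tap2* (-0.57). *H2-K1*, *B2m*, *Psmb8* and *Nlrc5* were above 0 with TPM, at 0.37, 0.06, 0.11 and 0.12, and below 0 with TMM scaling, at -0.17, -0.48, -0.42 and -0.40. *Tapbp* was at 0.05 and *Psmb10* at 0.12 with TMM scaling, and *Tapbp* was at -0.02 with DESeq2 size factors. *Psmb9*, *H2-D1* (-0.34 with TPM), *Tap1* (-0.19) and *Tap2* (-0.03, with a counting interval that held 0) were below 0 with TPM and under each scaling.

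In *Cd300a-/-* neutrophils, 7 of the 9 genes were higher in SiglecF hi past 0.5 with TPM, against 56.6% of all genes, and 0 were lower, against 7.97%. The median of the 9 was 0.69, near the 0.61 of all genes. The ratio was largest for *Psmb10*, at 1.72 (1.57 to 1.88). *Psmb8* (0.86), *H2-K1* (0.71), *B2m* (0.70), *Tapbp* (0.69), *Psmb9* (0.67) and *Tap1* (0.58) followed. *Nlrc5* had 0.72 (0.54 to 0.90), *Tap2* 0.41 and *H2-D1* -0.34. With TMM scaling only *Psmb10* was higher past 0.5, at 1.14, against 24.2% of all genes, and only *H2-D1* was lower past it, at -0.92, against 21.9%. *Tap2* turned to -0.17 with TMM scaling, and *Tap1* was at 0.005. The comparisons in WT and in *Cd300a-/-* share no library with each other, but each shares a library with both genotype comparisons. The neutrophil markers, with 6 of 9 lower past 0.5 in WT and 8 of 9 in *Cd300a-/-*, and the monocyte or macrophage markers, with 7 and 8 of 10 higher and 1 lower in each, moved with the subset. With TMM scaling 9 of 9 neutrophil markers were lower in each genotype, and 7 and 5 of 10 monocyte or macrophage markers were higher and 2 lower in each. Of the 5 fibroblast markers over the limit, 5 were higher in WT and 3 in *Cd300a-/-* with TPM, and 3 and 0 with TMM scaling. Of the 5 endothelial markers, 4 were lower in WT and 5 higher in *Cd300a-/-* with TPM, and 5 lower and 1 higher with TMM scaling. Of the 3 cardiomyocyte markers, 1 was higher in WT and 2 in *Cd300a-/-* with TPM, against 2 lower and 1 higher with TMM scaling. The part of these markers in the subset differences was not tested.

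The rest of the class I pathway was read from fixed lists, whose counts between genotypes stand against 19.9% of all genes lower and 16.4% higher past 0.5 in SiglecF lo and 3.46% and 3.31% in SiglecF hi neutrophils. Of 15 other class I heavy chain genes, 8 were over 10 TPM on average, and 1 of them, *H2-M3*, was past 0.5 between genotypes in SiglecF lo neutrophils, with a log2 ratio of -1.15. In SiglecF hi neutrophils its ratio was -0.37. *H2-T23*, which encodes Qa-1, was at 460.4, 372, 318 and 306 TPM in WT SiglecF lo, *Cd300a-/-* SiglecF lo, WT SiglecF hi and *Cd300a-/-* SiglecF hi neutrophils, with genotype ratios of -0.31 (SiglecF lo) and -0.05 (SiglecF hi). The genotype ratios in SiglecF lo and SiglecF hi neutrophils were 0.03 and 0.27 for *H2-Q4*, -0.30 and 0.36 for *H2-Q6*, -0.12 and -0.05 for *H2-Q7*, -0.14 and 0.10 for *H2-T22*, and -0.04 and 0.20 for *H2-T24*. *H2-Q10* was at 284, 229.9, 119 and 137 TPM in the same order of libraries, with genotype ratios of -0.30 and 0.20. Like *H2-D1*, it was lower in SiglecF hi than in SiglecF lo neutrophils in both genotypes, by log2 ratios of -1.24 in WT and -0.74 in *Cd300a-/-*, or -1.78 and -1.32 with TMM scaling. The same held for *H2-T23*, at -0.53 and -0.28, or -1.07 and -0.86 with TMM scaling. With TMM scaling *H2-Q7*, *H2-T22* and *H2-T24* were below 0 in both genotypes as well.

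Part of the proteasome genes outside the immunoproteasome were also lower in *Cd300a-/-* SiglecF lo neutrophils. Of the 14 genes of the constitutive core, which the immunoproteasome shares apart from its catalytic subunits, 8 were lower past 0.5, against 19.9% of all genes, and 0 higher, against 16.4%. Their median log2 ratio was -0.58, against -0.06 and 0 genes past 0.5 in SiglecF hi neutrophils. *Psmb2* (-1.20), *Psma5* (-1.02) and *Psma4* (-0.94) had the largest ratios in SiglecF lo neutrophils. Their ratios in SiglecF hi neutrophils were -0.06, -0.23 and -0.24, and *Psma6* had the largest there, at -0.31, against -0.05 in SiglecF lo neutrophils. The constitutive catalytic subunits differed among themselves, with ratios in SiglecF lo neutrophils of -0.03 for *Psmb5*, -0.68 for *Psmb6* and -0.19 for *Psmb7*. In SiglecF hi neutrophils these were -0.23, -0.19 and 0.09. Of 7 proteasome activator and assembly genes, 4 were lower and 0 higher past 0.5 in SiglecF lo neutrophils, against 0 in SiglecF hi neutrophils, with medians of -0.75 and -0.03. *Psme1* and *Psme2*, the subunits of the interferon-induced PA28 activator, had ratios of -0.75 and -0.86 in SiglecF lo neutrophils and 0.07 each in SiglecF hi neutrophils. The assembly chaperones *Psmg2* and *Psmg1* had -1.77 and -0.80 in SiglecF lo and -0.03 and -0.23 in SiglecF hi neutrophils, *Pomp* had -0.42 and -0.25, and *Psme4* 0.31 and -0.15. *Psme2* is uncertain, because 64.4% of its 36-base stretches also occur in *Psme2b*, which had 0 counts for WT SiglecF lo, 72 for *Cd300a-/-* SiglecF lo, 226 for WT SiglecF hi and 106 for *Cd300a-/-* SiglecF hi neutrophils.

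Of 11 peptide loading and trimming genes, 2 were higher past 0.5 in *Cd300a-/-* SiglecF lo neutrophils, against 16.4% of all genes, and 2 lower, against 19.9%, and 0 were past it in SiglecF hi neutrophils. These counts are near the shares of all genes. The aminopeptidase gene *Npepps* had log2 ratios of 1.39 (SiglecF lo) and 0.25 (SiglecF hi), and *Tpp2*, which encodes a large cytosolic peptidase, had 0.55 and 0.22. The oxidoreductase gene *Pdia3* and calreticulin (*Calr*), both of the peptide-loading complex, had -0.54 and -0.53 in SiglecF lo and -0.32 and -0.35 in SiglecF hi neutrophils. *Blmh* had -0.21 and -0.41.

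Part of the interferon-induced genes outside the class I pathway were lower in *Cd300a-/-* SiglecF lo neutrophils. Of 20 listed, 18 were over the limit, and 10 of these were lower past 0.5, against 19.9% of all genes, and 0 higher, against 16.4%, with a median log2 ratio of -0.66. In SiglecF hi neutrophils the median was 0.08, with 1 higher and 0 lower past 0.5. *Ifit1* had -1.46 and 0.19, the chemokine gene *Cxcl10* had -1.23 and 0.25, and *Ifit2* had -1.06 and 0.55 in SiglecF lo and SiglecF hi neutrophils. The GTPase gene *Igtp* had -0.72 and 0.26, and *Irf7* -0.09 and 0.47. *Isg15*, the most abundant of the list and named after its values were seen, was at 1016, 518, 466 and 481.5 TPM in WT SiglecF lo, *Cd300a-/-* SiglecF lo, WT SiglecF hi and *Cd300a-/-* SiglecF hi neutrophils. It was thus highest in WT SiglecF lo neutrophils, as was *Psmb9*.

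Of the ligands, *Ifng* had 0 counts in 3 libraries and 18 counts in *Cd300a-/-* SiglecF hi neutrophils, and *Ifnb1* had 4 counts in *Cd300a-/-* SiglecF lo neutrophils and 0 in the others. Of the 10 interferon ligand, receptor and signalling genes, 7 were over the limit, all of them for receptor chains or kinases. Of the 7, 1, *Jak2*, was higher past 0.5 in SiglecF lo neutrophils, against 16.4% of all genes, with a log2 ratio of 0.71, and had 0.41 in SiglecF hi neutrophils. *Tyk2* had 0.33 and 0.05, *Ifnar1* 0.31 and 0.03, *Ifngr1* 0.22 and 0.17, and *Ifngr2* 0.21 and 0.16. The median of the 7 was 0.22 in SiglecF lo against 0.05 in SiglecF hi neutrophils.

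Of 18 genes for factors that act at class I promoters, 15 were over the limit, and 3 were higher past 0.5 in *Cd300a-/-* SiglecF lo neutrophils, against 16.4% of all genes, and 3 lower, against 19.9%, with 0 past it in SiglecF hi neutrophils. These counts too are near the shares of all genes. *Stat2*, of the type I interferon signal, had log2 ratios of -0.58 (SiglecF lo) and 0.33 (SiglecF hi). *Irf1*, an interferon-induced activator of class I genes, was at 115 and 98.0 TPM in the SiglecF lo neutrophils (-0.23) and at 145 and 165 TPM in the SiglecF hi neutrophils (0.19). The other named factors were *Nfya* (0.95 in SiglecF lo against -0.19 in SiglecF hi neutrophils), *Rfxap* (-0.71 and -0.09), *Nfkb1* (0.51 and 0.43) and *Irf8* (-0.21 and -0.35). Of the 6 MHC class II genes, 2 were lower and 0 higher past 0.5 in *Cd300a-/-* SiglecF lo neutrophils. These were the peptide-exchange genes *H2-DMb1* (-0.96, and -0.17 in SiglecF hi neutrophils) and *H2-DMa* (-0.78 and -0.30). *H2-Eb1* had 0.16 and -0.003, and *Cd74* 0.08 in both subsets.

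Between the subsets the counts of these lists changed with the scale. Of all genes, 51.9% were higher in SiglecF hi past 0.5 and 7.47% lower in WT, and 56.6% and 7.97% in *Cd300a-/-*, with TPM, and 20.1% and 21.0% in WT and 24.2% and 21.9% in *Cd300a-/-* with TMM scaling. Of the 14 constitutive core genes, 7 were higher and 0 lower in WT and 12 higher and 0 lower in *Cd300a-/-* with TPM, but 0 higher and 1 lower in WT and 3 higher and 0 lower in *Cd300a-/-* with TMM scaling. In WT the count of higher core genes was thus near the share of all genes with TPM. Of the 18 interferon-induced genes, 1 was higher and 5 lower in WT and 12 higher and 0 lower in *Cd300a-/-* with TPM, against 0 higher and 9 lower in WT and 3 higher and 2 lower in *Cd300a-/-* with TMM scaling. Of the 7 activator and assembly genes, 2 were higher and 0 lower in WT and 5 higher and 0 lower in *Cd300a-/-* with TPM, against 0 higher and 3 lower in WT and 2 higher and 0 lower in *Cd300a-/-* with TMM scaling. Both lists thus had more lower genes in WT than in *Cd300a-/-* with TMM scaling. Of the 11 loading and trimming genes, 8 were higher and 0 lower in WT and 9 higher and 1 lower in *Cd300a-/-* with TPM, and 3 higher and 0 lower in WT and 2 higher and 1 lower in *Cd300a-/-* with TMM scaling. Of the 8 other heavy chains, 2 were higher and 2 lower in WT and 3 higher and 1 lower in *Cd300a-/-* with TPM, and 0 higher and 4 lower in WT and 1 higher and 3 lower in *Cd300a-/-* with TMM scaling. The 6 class II genes, which serve presentation to CD4 T cells, had 0 past 0.5 in WT and 1 higher and 0 lower in *Cd300a-/-* with TPM, and 6 lower in WT and 4 lower in *Cd300a-/-* with TMM scaling, with 0 higher in both.

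The pattern of the 10 genes over the 4 libraries was compared with that of every other gene over the limit, as the Euclidean distance between log2(TPM + 1) values centred per gene and the mean of the centred values of the 10 genes. That mean was 0.07 for WT SiglecF lo, -0.45 for *Cd300a-/-* SiglecF lo, 0.15 for WT SiglecF hi and 0.22 for *Cd300a-/-* SiglecF hi neutrophils. Among the nearest genes were *Cox8a* (distance 0.034), *Psma1* (0.037), *Prkch* (0.042) and *Dph3* (0.052). *Cox8a*, for example, was at 746, 503, 783 and 819.6 TPM in the same order of libraries. Among the 10 genes themselves, *Nlrc5* was nearest to the mean (0.044), with *B2m* (0.12) and *Psmb8* (0.16) next, and *Psmb10* was farthest (0.87), after *H2-D1* (0.82). *Tapbp* (0.68) and *Psmb9* (0.78) also lay far from it, so the mean did not describe all 10 genes. Of 6514 other genes, 4 were nearer to the mean than *Nlrc5*, and 575 were nearer than the median distance of the 10 genes (0.31). The pattern was thus not particular to the 10 genes, which also entered the mean themselves.

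The genes lie on 3 chromosomes, with positions as the files give them and GRCm39 as the build in the submitters' processing notes. *B2m* (ENSMUSG00000060802) lies on chromosome 2 from 121978167 to 121983564. *Psmb10* (ENSMUSG00000031897, 106662367 to 106665076) and *Nlrc5* (ENSMUSG00000074151, 95160984 to 95253900) lie on chromosome 8. The other 7 lie on chromosome 17, in the MHC. *Tapbp* (ENSMUSG00000024308) runs from 34134873 to 34148266, *H2-K1* (ENSMUSG00000061232) from 34214991 to 34219321, and *H2-D1* (ENSMUSG00000073411) from 35481706 to 35486475. Between them, *Psmb9* (ENSMUSG00000096727, 34400961 to 34406738), *Tap1* (ENSMUSG00000037321, 34406527 to 34416199), *Psmb8* (ENSMUSG00000024338, 34416695 to 34420428) and *Tap2* (ENSMUSG00000024339, 34422501 to 34435295) fill 34335 bases. *Psmb9* lies on the minus strand and the other 3 on the plus strand. The gene models of *Psmb9* and *Tap1* overlap by 212 bases, and a strand was not stated for the counting, so reads from the overlap cannot be told apart. These neighbours did not have equal genotype ratios in SiglecF lo neutrophils, since *Psmb9*, *Tap1* and *Psmb8* were past -0.5 and *Tap2* was at -0.16.

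**Figure D3:**
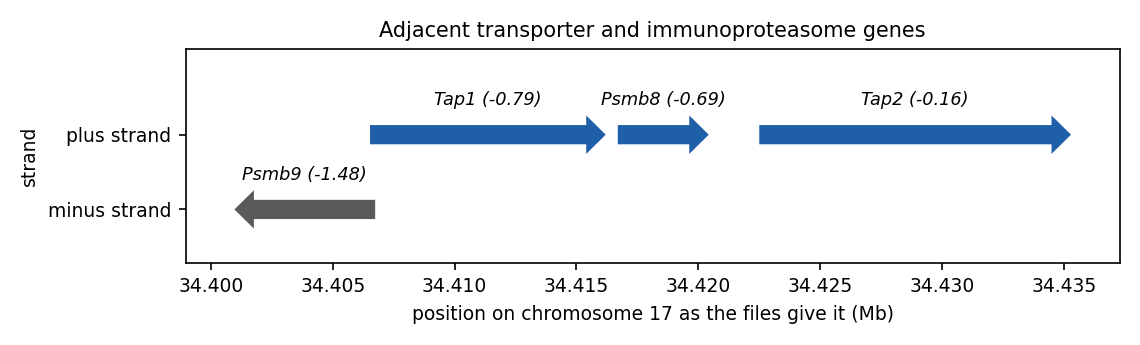
Map of the 4 adjacent genes on chromosome 17, to scale, with the position in Mb as the files give it on the x axis and the strand on the y axis. Arrows span each gene in its direction of transcription, and the number beside each name is its log2((TPM + 1) ratio) with *Cd300a-/-* over WT in SiglecF lo neutrophils, from -1.48 for *Psmb9* to -0.16 for *Tap2*.

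Class I heavy chains are close copies of each other, so the sharing of sequence was measured on the longest GENCODE M21 transcript of each gene. Of the 36-base stretches of *H2-K1*, 17.2% also occurred in transcripts of other genes, 13.1% in *H2-D1*. Of those of *H2-D1*, 23.3% were shared, 10.5% with *H2-K1*. The share was 26.6% for *H2-Q10*, 24.2% for *H2-T23*, 48.1% for *H2-Q4*, 46.0% for *H2-Q6*, 36.8% for *H2-Q7* and 67.4% for *H2-T22*. The counts of these heavy chains are uncertain where the counting could split such reads. *B2m*, *Psmb9* and *Psmb10* shared 0% and *Nlrc5* 0.106%, so no stretch of this length was shared by the light chain or by the subunits *Psmb9* and *Psmb10*. Reads from the overlap of the *Psmb9* and *Tap1* gene models are a separate limit, given above. *Tap1* shared 1.01%, *Psmb8* 6.52%, *Tap2* 14.6% and *Tapbp* 22.9%. The gene models that shared most with these were *Gm15821* for *Tap1* and *Tap2*, *Gm20496* for *Psmb8* and *Gm19412* for *Tapbp*, which were not analysed here.

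Class I promoters are known for a shared module, an enhancer with a κB site and an interferon response element, followed by the X and Y boxes at which NLRC5 acts with RFX, CREB or ATF, and NF-Y proteins. RefSeq windows of 300 bases (250 before to 50 after a gene's start, GRCm38.p6) were given for 8 of the 10 genes. *Tap2* and *Nlrc5* are named only. The core of the CREB or ATF site (TGACG) and the Y box (ATTGG, the NF-Y site) stood 20 bases apart in the windows of *H2-K1*, *H2-D1* and *B2m*. This pair was chosen after the sequences were read, and both strands were searched. It occurred in 31 of 32851 windows (0.0944%), of 27 genes, among them *H2-M3*, which was 1 of 11 other class I heavy chain genes with a window. Singly, TGACG was in 20.8% and ATTGG in 37.4% of windows, and each pair contains both. GGGGATTCC, a κB motif, was in the windows of *H2-K1* and *H2-D1*, of 2 of the 11 other heavy chain genes and in 0.250% of all windows. GAAANNGAAA, the core of an interferon response element, was in the window of *B2m* and in 3.44% of all. Only these exact letters were searched, so a κB site or interferon response element with other letters would have been missed in any window. The windows of *Psmb9* (chr17:34187281-34187580, minus strand) and *Tap1* (chr17:34187306-34187605, plus strand) share 275 bases and hold TGACG and ATTGG on opposite strands, without the pair.

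The stretches from the matched κB motif (or, in *B2m*, the interferon response core) to the Y box are printed to show the matched letters. These genes had unlike genotype ratios in SiglecF lo neutrophils, -0.27 for *H2-K1*, 0.02 for *H2-D1* and -0.66 for *B2m*. They are RefSeq sequence on GRCm38.p6, at chr17:34000359-34000458 on the minus strand, chr17:35262923-35263022 on the plus strand and chr2:122147548-122147638 on the plus strand. Capitals mark only the exact matches of the κB motif or interferon response core, TGACG and ATTGG. Elements of the module with other letters were not searched and are not marked.
H2-K1: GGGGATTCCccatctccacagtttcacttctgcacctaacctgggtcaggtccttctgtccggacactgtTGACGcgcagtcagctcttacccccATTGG
H2-D1: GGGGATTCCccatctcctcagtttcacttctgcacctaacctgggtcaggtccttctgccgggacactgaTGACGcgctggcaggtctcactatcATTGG
B2m: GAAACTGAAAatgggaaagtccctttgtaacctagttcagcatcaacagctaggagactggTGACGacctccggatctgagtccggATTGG
The stretches of *H2-K1* and *H2-D1* were identical at 89 of 100 bases. Over the 30 bases of the pair, *H2-K1* and *H2-D1* were identical at 23 bases, *B2m* and *H2-K1* at 13 and *B2m* and *H2-D1* at 12, the motifs included. A match describes the letters of a window and is neither a shown binding site nor a cause of a ratio.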

How the data were processed

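Poly(A) RNA of 4 libraries, each pooled from 8 hearts, was sequenced with paired ends by the authors after library preparation with a kit that does not mark strand, and CLC Genomics Workbench is named in the methods for TPM. The aligner settings and the annotation release are not given in the sources used here, and the submitters' processing notes name GRCm39. The authors deposited, for each gene, a whole-number count without normalization, whether of reads or of pairs is not stated. The authors also deposited RPKM, which corrects for depth and gene length, and TPM, whose sum was the same in each library. The deposited signal headed CPM equals TMM-scaled CPM computed here within a relative difference of 8.55e-05. The results rest on TPM with the counts. The signal and RPKM served for checks, and RPKM gave the length that the files imply.

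Log2((TPM + 1) ratio) values were calculated between genotypes within each subset (*Cd300a-/-* over WT) and between subsets within each genotype (SiglecF hi over SiglecF lo), with a mean TPM over 10 and a threshold of 0.5. Their 95% intervals used the Poisson error of both counts. No test was made, since each group had 1 library. Depth ran from 9631901 to 19278243 counts. Alternatives were a pseudocount of 0.1, TMM (edgeR 4.0.16), size factors (DESeq2 1.42.0, R 4.3.3), centring, a threshold of 1, and TPM filters of a mean over 1, over 10 in at least 1 library and over 10 in both libraries compared. Python 3.11.15, numpy 2.4.6, pandas 2.3.3, scipy 1.17.1 and matplotlib 3.10.9 were used, and the calculations were tested on simulated data.

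The genes named were all 10 members, *Psmb5*, *Psmb6*, *Psmb7*, *Psme1*, *Psme2* and *Irf1*, other class I heavy chains over the limit, in each other pathway list the 3 genes over the limit with the largest absolute genotype ratio in each subset, the 5 genes of most like pattern, and *Cd300a*, *Siglecf* and *Ly6g*. Some genes that this rule takes are not reported here. The members, pathway lists and cell type marker lists (neutrophil, eosinophil, monocyte or macrophage, dendritic, T or NK, B, endothelial, fibroblast, cardiomyocyte) were chosen with earlier results of these data known. The difference of genotype ratios, the sharing of 36-base stretches and the spacing of the promoter pair were added after the data or sequences were seen. Promoter windows were RefSeq's on GRCm38.p6, matched by symbol, and no position was converted between builds.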

Additional observations from a re-analysis of the deposited data

Results flagged for a closer look

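Some genes had log2 ratios in opposite directions under the same contrast, with both 95% counting intervals clear of 0. The value given for each is the *Cd300a-/-* to WT ratio in SiglecF hi minus that in SiglecF lo neutrophils, which equals the SiglecF hi to SiglecF lo ratio in *Cd300a-/-* minus that in WT. With 1 library per group, none of these differences was tested.

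Between genotypes, *Psmb10* (1.07), *Tap2* (0.44) and *H2-K1* (0.34) were below 0 in SiglecF lo and above 0 in SiglecF hi neutrophils. The same held for *Ifit1* (1.65), *Ifit2* (1.60), *Cxcl10* (1.47), *Igtp* (0.98), *Stat2* (0.91), *H2-Q6* (0.66), *Irf7* (0.56), *H2-Q10* (0.50), *Irf1* (0.42) and *Psmb7* (0.28). *Nfya* (-1.14) and *Psme4* (-0.46) were above 0 in SiglecF lo and below 0 in SiglecF hi neutrophils. The counting intervals were computed with TPM. With TMM scaling the ratios of *Psmb10* (0.09) and *Psmb7* (0.07) in SiglecF hi and of *Irf7* (-0.07) in SiglecF lo neutrophils were nearer to 0 than the half-width of these intervals, so the opposite directions of these 3 genes were lost. With DESeq2 size factors this was so for *Irf7* (-0.04), *Psmb7* (-0.14) and *Tap2* (-0.11) in SiglecF lo neutrophils, and after centring for *Psmb10* (0.06) and *Psmb7* (0.05) in SiglecF hi and *Irf7* (-0.07) in SiglecF lo neutrophils.

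Between subsets, *Psmb9* (1.21) and *Tap1* (0.77) were lower in SiglecF hi neutrophils in WT and higher in *Cd300a-/-*. The same held for *Ifit1* (1.65), *Psme2* (0.93), *Psme1* (0.82) and *H2-DMa* (0.48), and the reverse for *Npepps* (-1.14). With TMM scaling the subset ratios were -1.07 in WT and 0.10 in *Cd300a-/-* for *Psmb9*, -0.73 and 0.005 for *Tap1*, -1.36 and 0.25 for *Ifit1*, -0.65 and 0.23 for *Psme2*, and -0.73 and 0.04 for *Psme1*. Those of *Psmb9*, *Tap1* and *Psme1* in *Cd300a-/-* were thus nearer to 0 than the half-width of their counting intervals with TPM, so their opposite directions were lost with TMM scaling. They were also lost for *H2-DMa* (-0.73 and -0.28) and *Npepps* (-0.02 and -1.22). With DESeq2 size factors *Psme1* (-0.04) and *Tap1* (-0.08) were below 0 in *Cd300a-/-*. *Psmb9* was at 0.02 there with DESeq2 size factors and at 0.06 after centring, nearer to 0 than the half-width of its interval. *Tap1* was at -0.03 there after centring. The opposite directions of *Psmb9* and *Tap1* were thus lost under these alternatives too.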

How the results depend on the processing

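Past 0.5, 5, 0, 3 and 7 of the members tested were called between genotypes in SiglecF lo, between genotypes in SiglecF hi, between subsets in WT and between subsets in *Cd300a-/-* neutrophils, and 36.3%, 6.78%, 59.4% and 64.6% of all genes. A threshold of 1 left 1, 0, 0 and 1 members and 9.37%, 0.705%, 23.3% and 30.3% of all genes, as a stricter threshold must lower them. A mean TPM over 1 raised the share of all genes between genotypes in SiglecF hi neutrophils to 15.0%. Between subsets in WT, the members' median of 0.06 became -0.48 with TMM scaling, -0.54 with DESeq2 size factors and -0.46 after centring. DESeq2 size factors called 5 members there, against 42.6% of all genes. In *Cd300a-/-*, the median of 0.69 became 0.11, 0.0285 and 0.0801, and 2 members were called under each of the 3 alternatives. The shares of all genes called were 46.1%, 46.9% and 44.8% in the same order. These alternatives take out the median shift between subsets by construction. The ratio of *Tapbp* in WT turned to -0.0202 with DESeq2 size factors, and that of *Tap1* in *Cd300a-/-* to -0.0809 with DESeq2 size factors and -0.0348 after centring.

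Between genotypes in SiglecF lo neutrophils, 5 members were called under the pseudocount of 0.1 and each of the 3 scalings, with medians from -0.66 to -0.61, and in SiglecF hi neutrophils 0 were called. With the pseudocount, TMM scaling, DESeq2 size factors and centring, 38.5%, 37.1%, 38.4% and 36.3% of all genes were called in SiglecF lo neutrophils. In SiglecF hi neutrophils these shares were 7.59%, 6.67%, 7.51% and 6.73%. A mean TPM over 1 brought in *Nlrc5*, which made the count in SiglecF lo neutrophils 6, against 45.1% of all genes. The difference of the genotype ratios was added after seeing the data, and its median lay between 0.58 and 0.64 under the 4 alternatives run, with 5 members over 0.5 under each. The within-library ratios from counts and implied length equal those from TPM by construction. No paired analysis was possible because no groups share more than 1 replicate number and the results come from no test. No replicate could be left out, since each group has 1 library. Depth limits the genes of few counts most, such as *Nlrc5* with 248 to 646 counts.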
